A study of Mus musculus with 12 samples.

Results

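The genes of the mitotic cell cycle were followed in medullary thymic epithelial cells (mTECs), the cells of the thymic medulla that display peripheral self antigens to developing T cells. The 40 listed genes cover DNA replication, mitotic entry and exit, and the spindle and its checkpoint, and a gene was read from probe sets with its symbol alone, using the brightest where a gene had more than 1. This gave values for 38 of the 40, out of 22154 genes read the same way. Ccnb1 (cyclin B1) had no such probe set and is not analysed here, and Ccne2 (cyclin E2) lay only on a probe set shared with another gene. The 38 genes comprise 14 of S phase and replication, 12 of mitotic entry and exit, and 12 of the spindle and checkpoint.

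RNA was measured on single-channel Affymetrix arrays from mTECs of C57BL/6 mice aged 4 weeks. The knockout genotypes were Aire-/-, lacking the transcriptional regulator of peripheral antigens in mTECs, and Brg1-/-, lacking the product of Smarca4, the ATPase that drives SWI/SNF chromatin remodelling, each with a wild-type group of its own line, Aire+/+ and Brg1+/+. Cells negative for DAPI and CD45, positive for Epcam and UEA and low for Ly51 were sorted into MHC class II high cells (mTEChi) and MHC class II low cells (mTEClo). The 4 mTEChi groups had 2 arrays apiece, numbered 1 and 2 in the labels, while a single array, numbered 1, stood for each mTEClo group. The labels give neither the alleles' design nor the means of deletion, nor whether the arrays of a group stem from different animals. The p-values therefore cover just the spread among these arrays, part or all of which may be technical.

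Cells that prepare to divide first make cyclin E and the helicase, clamp and nucleotide enzymes of DNA replication, largely under the E2F factors. Later they switch on mitotic genes such as Cdk1, cyclins A2 and B2, the Polo-like and Aurora kinases and the spindle checkpoint, many of which are controlled by B-Myb and Foxm1 complexes at the cell cycle homology region (CHR) of their promoters and by NF-Y at CCAAT boxes. Destruction of the cyclins through the anaphase-promoting complex, with Cdc20 and Ube2c, ends mitosis. In the thymic medulla, dividing epithelial cells are known to give rise to cells that express Aire, which have largely left the cycle.

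These genes lay about as high on the arrays as other genes did. The median over the 38 genes of the mean log2 intensity was 5.38, against 5.43 over all 22154 genes. Of the 38 means, 28 were under 6, 8 were between 6 and 7, and 2 reached 7 or more, a level that 14.3% of all genes reached. The means ran from 3.92 for Bub1, a kinase of the spindle checkpoint, to 7.53 for Cdk1, the kinase that drives mitotic entry, and 9.54 for Pcna, the sliding clamp of the replication fork. An intensity depends on the probes in a set, so these means do not rank the genes by RNA. Detection calls were not used, so it is unknown at which intensity a signal leaves the background, and fold changes of dim genes are understated. Across the 12 arrays a cell cycle gene spanned 0.56 to 2.57 on the log2 scale, with a median span of 1.21, against 1.08 over all genes. Within replication, the helicase subunits Mcm2 to Mcm7 had means of 4.93 to 5.78, the helicase partners Cdc45 and Gins2 5.37 and 6.10, the loader Cdc6 4.33, and thymidylate synthase (Tyms) 6.64. The mitotic motors Kif11, Kif20a and Kif23 had 4.80, 5.15 and 4.56.

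**Figure D1:**
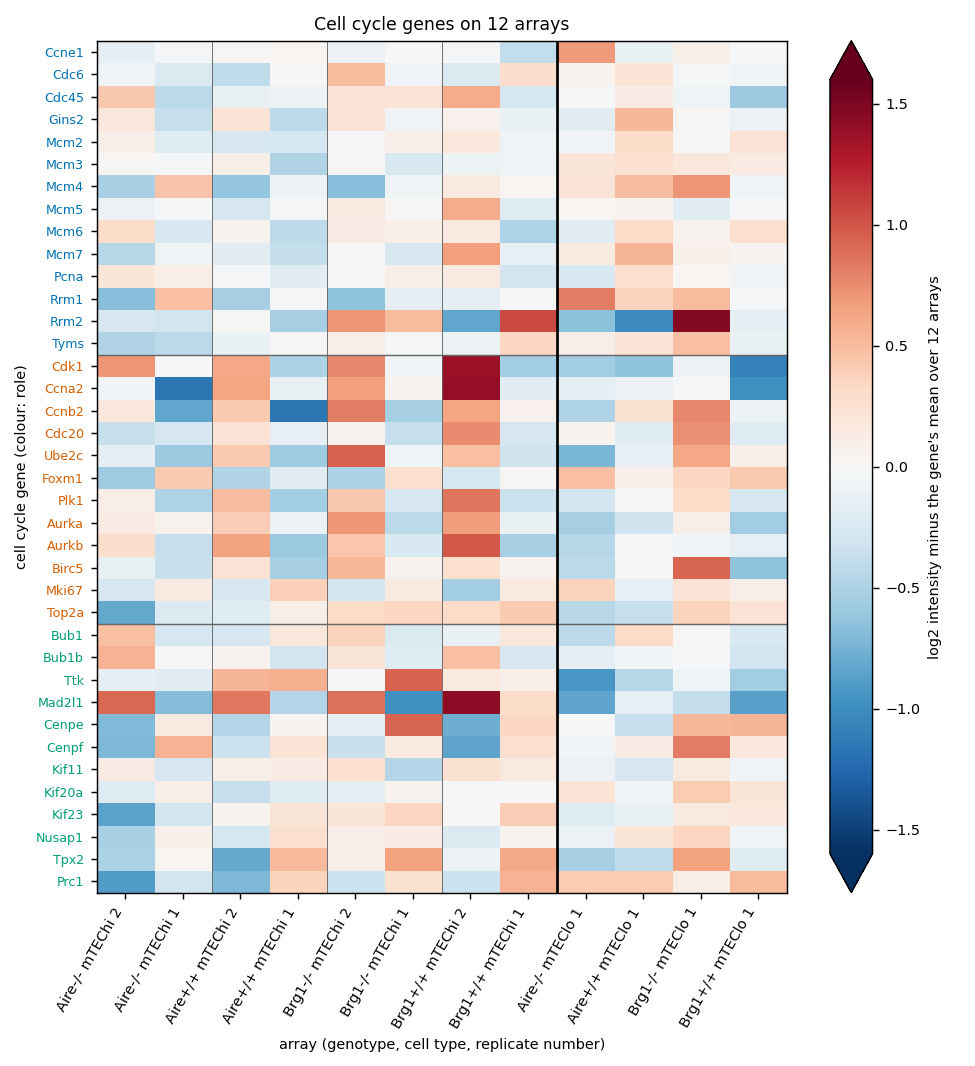
Log2 intensity of 38 cell cycle genes (rows) on 12 arrays (columns), each gene centred on its mean over the arrays, with genes of S phase and replication in blue, of mitotic entry and exit in orange and of the spindle and checkpoint in green, and a black line between mTEChi and mTEClo. Within the mTEChi groups the columns numbered 2 and 1 differ in both directions, with Mad2l1 higher and Cenpe lower on number 2 in all 4 groups.

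The labels and the sort were set against the markers. Over the 4 genotypes, Cd80 was higher in mTEChi than in mTEClo by 2.97 ± 0.267 (SE) on the log2 scale (limma adjusted p = 0.00118) and Aire by 2.14 ± 0.33 (adjusted p = 0.0101). Of 6 mTEC markers measured, only these 2 had an adjusted p under 0.05 in this fit, and 2 others, Epcam and Krt14, were lower in mTEChi. H2-Aa, a gene of MHC class II, did not pass in it, with 11.07 to 12.15 in mTEChi, against 10.31 to 10.83 in mTEClo. With the replicate number fitted as a block, 4 of the 6 passed, Aire, Cd80 and H2-Aa higher and Krt14 lower. Among arrays numbered 1 alone the same 4 passed. The shares of all genes that passed were 12.5% and 9.41%. Smarca4 had 5.44 and 5.88 in Brg1-/- mTEChi, against 6.89 and 6.13 in Brg1+/+ mTEChi, on arrays 2 and 1. Aire had 9.73 and 9.01 in Aire-/- mTEChi, against 8.80 and 8.04 in Aire+/+ mTEChi. The sources used here give neither the exons that the Aire and Smarca4 probe sets read nor those deleted, so these values do not check the genotypes. Array medians were 5.07 to 5.12 on the mTEChi arrays numbered 2 and 5.25 to 5.32 on the arrays numbered 1.

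Promoters of 5 of the genes are shown because their genes follow different courses below. Each is the RefSeq window on GRCm38.p6 of the 250 bases before and 30 bases after the annotated start, 5′ to 3′ on the gene's strand. Capitals mark 3 motifs on either strand: the CHR (TTTGAA), the CCAAT box (CCAAT) and the E2F site (TTTCCCGC, TTTCGCGC, TTTGCCGC or TTTGGCGC). Cdk1 (chr10:69352883-69353162, minus strand) has 2 CHRs, 3 CCAAT boxes and 1 E2F site, and Ccnb2, cyclin B2 (chr9:70421525-70421804, minus strand), 2 CHRs and 3 CCAAT boxes. Mki67, which encodes the Ki-67 protein that coats mitotic chromosomes (chr7:135716350-135716629, minus strand), also has 2 CHRs and 3 CCAAT boxes. Ttk, the Mps1 kinase of the spindle checkpoint (chr9:83834439-83834718, plus strand), has 1 CHR and 2 CCAAT boxes. Mcm5, a subunit of the replicative helicase (chr8:75109259-75109538, plus strand), has no CHR, 3 CCAAT boxes and 2 E2F sites that overlap on opposite strands in 1 run of capitals.
Cdk1: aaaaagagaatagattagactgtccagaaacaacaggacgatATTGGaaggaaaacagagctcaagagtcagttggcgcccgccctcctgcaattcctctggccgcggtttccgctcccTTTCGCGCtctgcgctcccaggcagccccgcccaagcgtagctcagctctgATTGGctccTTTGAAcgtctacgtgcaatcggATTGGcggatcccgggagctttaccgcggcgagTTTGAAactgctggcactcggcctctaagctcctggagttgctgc
Ccnb2: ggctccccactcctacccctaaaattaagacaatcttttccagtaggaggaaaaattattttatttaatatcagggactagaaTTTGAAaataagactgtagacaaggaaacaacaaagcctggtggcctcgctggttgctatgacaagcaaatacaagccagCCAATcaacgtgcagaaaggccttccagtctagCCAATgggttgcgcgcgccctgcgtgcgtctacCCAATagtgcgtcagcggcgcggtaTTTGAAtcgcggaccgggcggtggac
Mki67: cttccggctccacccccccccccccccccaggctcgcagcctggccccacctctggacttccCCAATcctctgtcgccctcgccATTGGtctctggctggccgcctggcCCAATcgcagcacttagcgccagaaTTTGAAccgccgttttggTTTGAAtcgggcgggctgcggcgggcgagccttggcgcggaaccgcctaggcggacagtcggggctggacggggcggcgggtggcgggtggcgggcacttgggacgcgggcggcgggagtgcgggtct
Ttk: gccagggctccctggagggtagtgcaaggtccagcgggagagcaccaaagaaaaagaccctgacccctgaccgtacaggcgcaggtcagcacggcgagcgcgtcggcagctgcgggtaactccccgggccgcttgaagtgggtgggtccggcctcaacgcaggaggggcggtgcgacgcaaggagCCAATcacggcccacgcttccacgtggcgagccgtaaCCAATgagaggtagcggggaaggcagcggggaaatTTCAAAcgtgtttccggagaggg
Mcm5: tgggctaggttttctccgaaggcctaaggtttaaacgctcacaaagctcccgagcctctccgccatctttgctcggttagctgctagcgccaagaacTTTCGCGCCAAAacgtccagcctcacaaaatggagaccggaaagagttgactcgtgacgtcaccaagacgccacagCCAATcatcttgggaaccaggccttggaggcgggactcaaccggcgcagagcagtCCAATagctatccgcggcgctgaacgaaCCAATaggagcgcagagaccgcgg
Of the 40 listed genes, 32 had such a window, and 2 of these had 2. Here and over all genes, a gene counted if any of its windows held the motif. The CHR stood in 13 of these 32 genes (40.6%), against 19.5% of 27025 genes. The CCAAT box stood in 26 (81.2%), against 39.7% of all genes, and the E2F site in 6 (18.8%), against 2.45%. The 6 genes with the E2F site were Cdc6, Cdk1, Mcm3, Mcm5, Mcm6 and Mcm7. A match of letters is a description and not a site of binding, and the motifs were chosen with the data known.

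The mTEChi arrays numbered 2 stood apart from those numbered 1 in all 4 groups, and cell cycle genes differed between the numbers in both directions. This comparison was added after the data were seen, and the labels do not say what a number marks. Of the 38 genes, 9 were higher and 7 lower on arrays numbered 2 than on arrays numbered 1 over the 4 mTEChi groups (limma, Benjamini-Hochberg adjusted p under 0.05). Over all 22154 genes 33.1% passed, 11.7% higher and 21.4% lower, so the 16 of 38 (42.1%) are not read as particular to these genes. In bulk RNA, fewer dividing cells and less RNA per cell cannot be told apart. Genes of mitotic entry and exit made up 7 of the 9 that were higher, and genes of the spindle 4 of the 7 that were lower.

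Mad2l1, the Mad2 protein that holds the anaphase-promoting complex in check, differed most. On the mTEChi arrays numbered 2 it had log2 intensities of 7.50, 7.43, 7.47 and 8.02 in Aire-/-, Aire+/+, Brg1-/- and Brg1+/+ cells, against 5.89, 6.12, 5.61 and 6.88 on the arrays numbered 1. The arrays numbered 2 were higher by 1.48 ± 0.156 (SE; adjusted p = 0.00102), and the 2 sets did not overlap. The share of all genes whose 2 sets did not overlap was not counted. Here and below, a lack of overlap is therefore not read as particular to these genes. Cdk1 had 8.23, 8.15, 8.29 and 8.91 in the same 4 groups on arrays numbered 2, against 7.52, 7.02, 7.48 and 6.98 on arrays numbered 1. That was a difference of 1.14 ± 0.208 (adjusted p = 0.00594), again without overlap. Its cyclin partners lay on the same side. Ccnb2 had 7.02, 7.26, 7.66 and 7.48 on arrays numbered 2, against 6.02, 5.69, 6.31 and 6.92 on arrays numbered 1, which differed by 1.12 ± 0.182 (adjusted p = 0.00395). Ccna2, the cyclin of S phase and mitotic entry, had 5.29, 5.97, 6.0 and 6.74 on number 2, against 4.17, 5.22, 5.38 and 5.16 on number 1, and differed by 1.02 ± 0.179 (adjusted p = 0.00528), though its lowest array numbered 2 lay below its highest numbered 1.

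Plk1, Aurka, Aurkb, Ube2c and Bub1b were also higher on number 2, while the kinases Ttk (-0.22 ± 0.19, adjusted p = 0.41) and Bub1 (0.15 ± 0.225, adjusted p = 0.633) did not pass. Aurkb, the kinase of the chromosomal passenger complex, had 5.66, 6.02, 5.82 and 6.37 on arrays numbered 2, against 5.01, 4.78, 5.13 and 4.85 on arrays numbered 1. Plk1, the Polo-like kinase, had 5.65, 6.04, 5.98 and 6.41 on number 2, against 5.06, 5.0, 5.28 and 5.20 on number 1. The 2 sets of arrays did not overlap for either kinase, and the differences were 1.02 ± 0.178 and 0.88 ± 0.15 (adjusted p = 0.00503 and 0.00464). Ube2c, the ubiquitin-conjugating enzyme of the anaphase-promoting complex, had 6.80, 7.37, 7.90 and 7.43 on number 2, against 6.37, 6.38, 6.88 and 6.63 on number 1, a difference of 0.81 ± 0.147 (adjusted p = 0.00594), with 1 array numbered 2 just below the highest numbered 1. Aurka, the centrosomal Aurora kinase, and Bub1b, the checkpoint protein BubR1, were higher by 0.61 ± 0.182 and 0.50 ± 0.133 (adjusted p = 0.0348 and 0.0227).

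The 7 genes that were lower on number 2 were Cenpe, Cenpf, Prc1, Tpx2, Mki67, Foxm1 and Rrm1. Cenpe, a kinetochore motor, had 5.28, 5.52, 5.83 and 5.21 on arrays numbered 2, against 6.13, 6.03, 6.92 and 6.32 on arrays numbered 1, and was lower by 0.89 on the log2 scale (difference -0.89 ± 0.149, adjusted p = 0.00435). Cenpf, a large protein of the outer kinetochore, had 4.66, 5.04, 5.02 and 4.54 on number 2, against 5.93, 5.60, 5.53 and 5.63 on number 1 (-0.86 ± 0.168, adjusted p = 0.00784). Neither gene's sets of arrays overlapped. Prc1, which bundles microtubules of the central spindle, had 4.86, 5.04, 5.42 and 5.41 on number 2, against 5.47, 6.12, 6.0 and 6.32 on number 1 (-0.80 ± 0.142, adjusted p = 0.00559). Tpx2, the activator of Aurora A on the spindle, had 5.09, 4.79, 5.69 and 5.51 on number 2, against 5.63, 6.12, 6.24 and 6.21 on number 1 (-0.78 ± 0.167, adjusted p = 0.0108). Tpx2 overlapped between the sets by 1 array on each side, and Prc1 did not overlap.

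Mki67, the usual marker of dividing cells, was among the genes that were lower. It had 5.07, 5.08, 5.03 and 4.80 on arrays numbered 2, against 5.48, 5.72, 5.49 and 5.50 on arrays numbered 1, with no overlap (-0.55 ± 0.129, adjusted p = 0.0149). Its promoter window, printed above, holds 2 CHRs and 3 CCAAT boxes, as that of Cdk1 does, although the 2 genes differed in opposite directions. Foxm1, the transcription factor that drives mitotic genes, had 4.53, 4.62, 4.60 and 4.82 on number 2, against 5.52, 4.93, 5.37 and 5.12 on number 1, also without overlap (-0.59 ± 0.161, adjusted p = 0.0254). Foxm1 thus lay on the opposite side from Plk1 and Aurkb and on the same side as Cenpf, all known as targets of Foxm1. Rrm1, the large subunit of ribonucleotide reductase, had 4.54, 4.69, 4.57 and 5.07 on number 2, against 5.70, 5.19, 5.08 and 5.23 on number 1, and was the only gene of replication to pass, without overlap (-0.58 ± 0.176, adjusted p = 0.0369). With each array centred on its median or with quantile normalization, Mki67, Foxm1 and Rrm1 remained lower but did not pass.

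**Figure D2:**
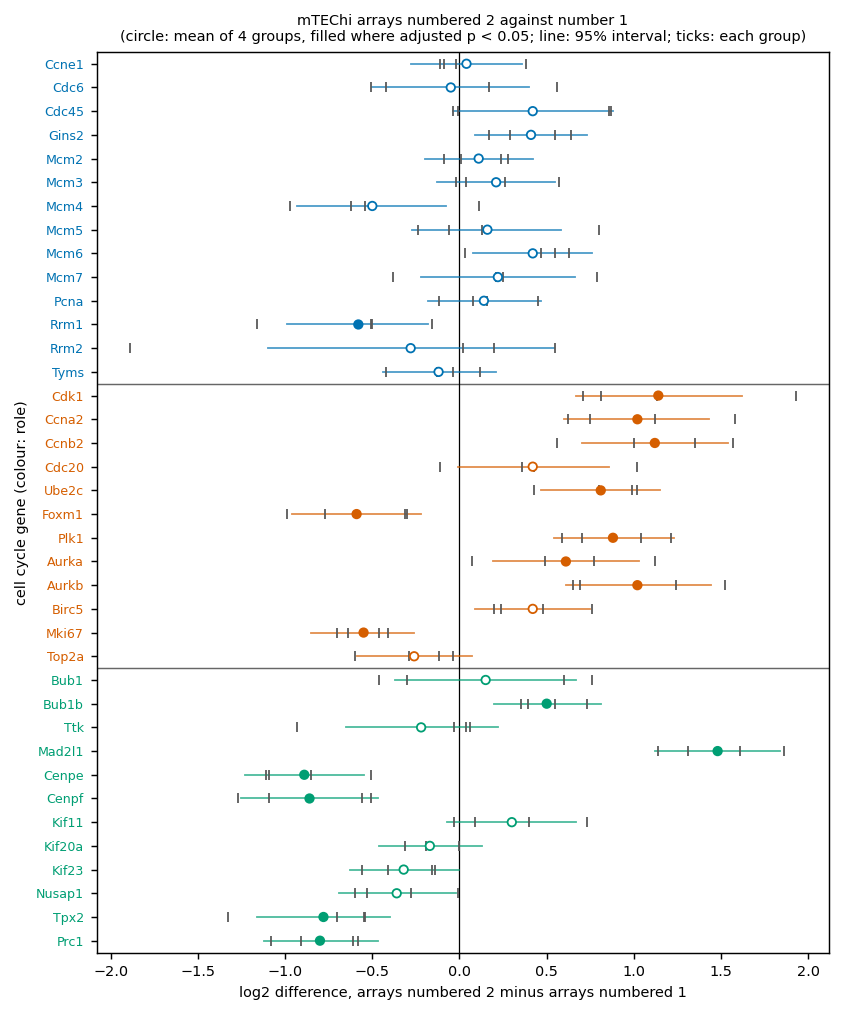
Log2 difference between mTEChi arrays numbered 2 and numbered 1 for 38 cell cycle genes, as the mean of 4 groups (circles, filled where the limma adjusted p is under 0.05) with its 95% interval (lines) and the difference in each group (ticks). Mad2l1, Cdk1 and Ccnb2 lie farthest to the right and Cenpe, Cenpf and Prc1 farthest to the left, while the genes of replication (blue) run from -0.58 to 0.42.

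Counted by direction alone, 12 of the 38 genes were higher on number 2 in all 4 mTEChi groups and 10 were lower in all 4, against 18.3% and 32.1% of all genes. Gins2 (0.41 ± 0.139, adjusted p = 0.0527), Mcm6 (0.42 ± 0.147, adjusted p = 0.0589) and Birc5 (0.42 ± 0.145, adjusted p = 0.057) were higher in all 4 without passing, and Kif23, Nusap1 and Top2a were lower in all 4 without passing. The balance of higher and lower moved with the scaling of the arrays. As deposited, the median of all genes was lower on number 2 by 0.115 (median -0.115), with 7327 genes past the threshold, 2582 higher and 4745 lower. Centred on each array's median, it was 0.05, with 4073 higher and 2805 lower, and with quantile normalization 3835 were higher and 2851 lower. The cell cycle genes then gave 13 higher and 4 lower, and 12 higher and 4 lower. With both arrays of a group left out, 12 genes passed without Aire+/+, 13 without Aire-/-, 16 without Brg1+/+ and 14 without Brg1-/-. Aurka, Bub1b, Foxm1, Mki67 and Rrm1 each missed the threshold in at least 1 of these.

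Of 117 other genes of the pathway 34 passed by number (29.1%), 9 higher (7.69%) and 25 lower (21.4%), beside 33.1%, 11.7% and 21.4% of all genes, so these counts are not read as particular to the pathway. Of 22 G1 cyclins, kinases and E2F factors, 4 were higher and 4 lower. Cdk6 and Cdk4, the kinases that act with cyclin D, were higher by 1.50 ± 0.149 and 1.00 ± 0.166 (adjusted p = 0.000843 and 0.00428), and Cdc25a, the phosphatase of the G1 to S step, was lower (-0.87 ± 0.179, adjusted p = 0.00924). Of 18 inhibitors and pocket proteins 4 were lower and 0 higher, among them Rb1, the retinoblastoma protein (-1.28 ± 0.148), and Cdkn1b, the inhibitor p27 (-1.06 ± 0.13), with adjusted p = 0.00133 and 0.00152. Of 50 other mitotic genes 2 were higher and 12 lower, led by the condensin subunit Smc4 (-1.23 ± 0.149, adjusted p = 0.00152). Of 27 other replication genes 3 were higher and 5 lower, led by Gins3, a subunit of the replicative helicase (-1.96 ± 0.244, adjusted p = 0.0016).

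Markers of the sorted cells and of others moved with the number as well. Of 11 thymocyte markers measured, 4 were higher on number 2 and 0 lower: Cd8b1 by 1.95 ± 0.387, Cd3d by 1.30 ± 0.36, Dntt by 1.03 ± 0.204 and Cd8a by 0.62 ± 0.174, with adjusted p = 0.00809, 0.0277, 0.00804 and 0.0291. None of the markers was at 0, and their summed linear intensity was 755.3 to 2395.9 on the mTEChi arrays numbered 2, against 542.0 to 767.8 on those numbered 1. In Brg1+/+ mTEChi this sum was 755.3 on array 2, against 767.8 on array 1. Of the 4 markers, Cd3d was lower on that array 2 (7.75 against 7.93). Cd8b1 (7.17 against 6.88), Dntt (5.12 against 4.68) and Cd8a (5.46 against 5.44) were higher. Cdk1 was higher there by 1.93 and Ccna2 by 1.58, the largest differences of the 4 groups for these genes. Mad2l1 was higher by 1.14 and Ccnb2 by 0.56, their smallest. Of the mTEC markers, Aire was higher on number 2 by 0.86 ± 0.192, H2-Aa by 0.76 ± 0.138 and Cd80 by 0.64 ± 0.175, and Epcam was lower (-0.46 ± 0.134). Their adjusted p were 0.0128, 0.00583, 0.0261 and 0.031. Of 7 markers of B cells and myeloid cells, Lyz2 was higher on number 2 (0.82 ± 0.13, adjusted p = 0.00365) and Ms4a1 lower (-0.71 ± 0.164, adjusted p = 0.014). Their summed linear intensity was 1192.8 to 1275.6 on the mTEChi arrays numbered 2, against 753.6 to 883.3 on those numbered 1, with no overlap between the 2 sets. Of 8 fibroblast and endothelial markers Lum was higher and Kdr and Pecam1 lower, with sums of 316.0 to 399.6 on number 2, against 310.7 to 407.3 on number 1. Of 6 cortical epithelial markers Ccl25 was lower, with sums of 505.3 to 616.8 on number 2, against 531.3 to 773.1 on number 1. The part of these markers' cells in the cell cycle differences was not tested beyond these values.

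Over all 12 arrays as deposited and with no block, no cell cycle gene passed between the cell types. In the wild types, 0 of 38 passed for mTEChi over mTEClo, where 2.56% of all genes did (567 genes, limma), and 1 of 38 had an unadjusted p under 0.05. The median difference was -0.02, against -0.10 for all genes. The largest positive differences were those of Cdk1 (1.10 ± 0.587, adjusted p = 0.51) and Mad2l1 (1.03 ± 0.701, adjusted p = 0.61), and the largest negative those of Prc1 (-0.49 ± 0.414, adjusted p = 0.666) and Foxm1 (-0.48 ± 0.352, adjusted p = 0.634). Genes of replication were below 0 in 11 of 14, and genes of mitotic entry and exit above 0 in 9 of 12 (median 0.232). The mitotic count depended on the replicate number: with the number as a block 7 of 12 were above 0 (median 0.119), and among arrays numbered 1 alone 6 were above and 5 below (median 0.038), while replication genes were below 0 in 11 and 10 of 14. When the number was fitted as a block, 1757 genes (7.93%) passed, and 0 of the 38, of which 6 had an unadjusted p under 0.05. Averaged over all 4 genotypes, 0 of 38 passed again, where 5.78% of all genes did, and 2 of 38 had an unadjusted p under 0.05. Genes of mitotic entry and exit were then above 0 in 8 of 12 without the block (median 0.072) and below 0 in 8 of 12 with it (median -0.178). The medians of all genes there were -0.096 and -0.037, and in the wild types -0.046 with the block and -0.055 among arrays numbered 1. The share of all genes above or below 0 was not counted for these comparisons. Counts of direction by role are therefore not read as particular to these genes. By size, Cdk1 (0.89 ± 0.415, adjusted p = 0.287) and Mad2l1 (0.84 ± 0.496, adjusted p = 0.385) stood at the top, and Rrm1 (-0.63 ± 0.255, adjusted p = 0.227) and Prc1 (-0.53 ± 0.293, adjusted p = 0.354) at the bottom. In mTEClo of Aire-/-, Aire+/+, Brg1-/- and Brg1+/+, Mad2l1 had 5.74, 6.45, 6.20 and 5.72, near its mTEChi arrays numbered 1 and below those numbered 2. Rrm1 had 6.04, 5.57, 5.73 and 5.20 and Prc1 6.16, 6.17, 5.86 and 6.26 there, likewise nearer to mTEChi numbered 1.

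All mTEClo arrays are numbered 1, so the cell types meet within a number only there. With the number as a block, 2 of the 38 genes passed over the 4 genotypes, where 12.5% of all genes did, 6.72% higher and 5.75% lower. Ttk was higher in mTEChi by 0.86 ± 0.19 (adjusted p = 0.0214). In mTEChi of Aire-/-, Aire+/+, Brg1-/- and Brg1+/+ it had 5.44, 6.12, 5.59 and 5.74 for number 2 and 5.40, 6.15, 6.52 and 5.68 for number 1, against 4.65, 5.12, 5.51 and 5.02 in mTEClo of the same genotypes. Ttk thus lay higher in mTEChi in all 4 genotypes, although the Brg1-/- mTEClo array lay above both Aire-/- mTEChi arrays. Without the block its difference was 0.76 ± 0.199 (adjusted p = 0.078), and among arrays numbered 1 alone it was 0.86 ± 0.126 (adjusted p = 0.0099, where 9.41% of all genes passed). It passed as well after centring, after quantile normalization and without Brg1-/- mTEChi array 2.

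Ccnb2 was the other gene to pass with the block, lower in mTEChi (-0.72 ± 0.182, adjusted p = 0.0382). On arrays numbered 1 it had 6.02, 5.69, 6.31 and 6.92 in mTEChi, against 6.35, 7.09, 7.61 and 6.75 in mTEClo of the same genotypes, and it was lower in 3 of the 4. It did not pass without the block (-0.16, the mTEChi arrays numbered 2 lying above those numbered 1), nor among arrays numbered 1 alone (-0.72 ± 0.277, adjusted p = 0.17). Among arrays numbered 1, Cdk1 and Ttk were higher in mTEChi in all 4 genotypes, and Foxm1, Gins2, Kif20a, Mcm3, Mcm7 and Plk1 were lower in all 4. These 2 and 6 of 38 stand beside 13.3% and 18.8% of all genes. Mcm3, a helicase subunit, was the only gene with all 8 mTEChi arrays (4.54 to 5.11) below all 4 mTEClo arrays (5.15 to 5.28), an arrangement found in 5.58% of all genes, and 0 of 38 had all 8 above, against 3.63%.

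The usual markers of division overlapped between the cell types. Mki67 had 4.80 to 5.72 over the 8 mTEChi arrays, given above, against 5.71, 5.21, 5.56 and 5.43 on the mTEClo arrays of Aire-/-, Aire+/+, Brg1-/- and Brg1+/+. Top2a, the topoisomerase that untangles chromosomes, had 5.19, 5.81, 6.31 and 6.31 in mTEChi numbered 2 of the same genotypes and 5.79, 6.10, 6.35 and 6.43 in mTEChi numbered 1, against 5.56, 5.64, 6.36 and 6.23 in mTEClo. For both genes the mTEClo values lay inside the range of mTEChi. Cdk1 had 6.97, 6.88, 7.44 and 6.45 in mTEClo, all but the Brg1-/- array below its lowest mTEChi array (6.98). Foxm1 had 5.58, 5.18, 5.43 and 5.52 in mTEClo, within or near its mTEChi arrays numbered 1. Among the genes of replication, Pcna had 9.73, 9.52, 9.52 and 9.69 in mTEChi numbered 2 and 9.65, 9.36, 9.64 and 9.24 in mTEChi numbered 1, against 9.30, 9.80, 9.57 and 9.49 in mTEClo. Neither cell type stood out. Mcm5 had 5.09, 4.92, 5.33 and 5.78 in mTEChi numbered 2 and 5.15, 5.16, 5.20 and 4.98 in mTEChi numbered 1, against 5.21, 5.24, 5.01 and 5.15 in mTEClo. Ccne1, cyclin E1, had 5.05, 5.21, 5.10 and 5.18 in mTEChi numbered 2 and 5.16, 5.23, 5.19 and 4.80 in mTEChi numbered 1, against 5.88, 5.08, 5.29 and 5.19 in mTEClo, where the Aire-/- array was the highest of all 12.

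**Figure D3:**
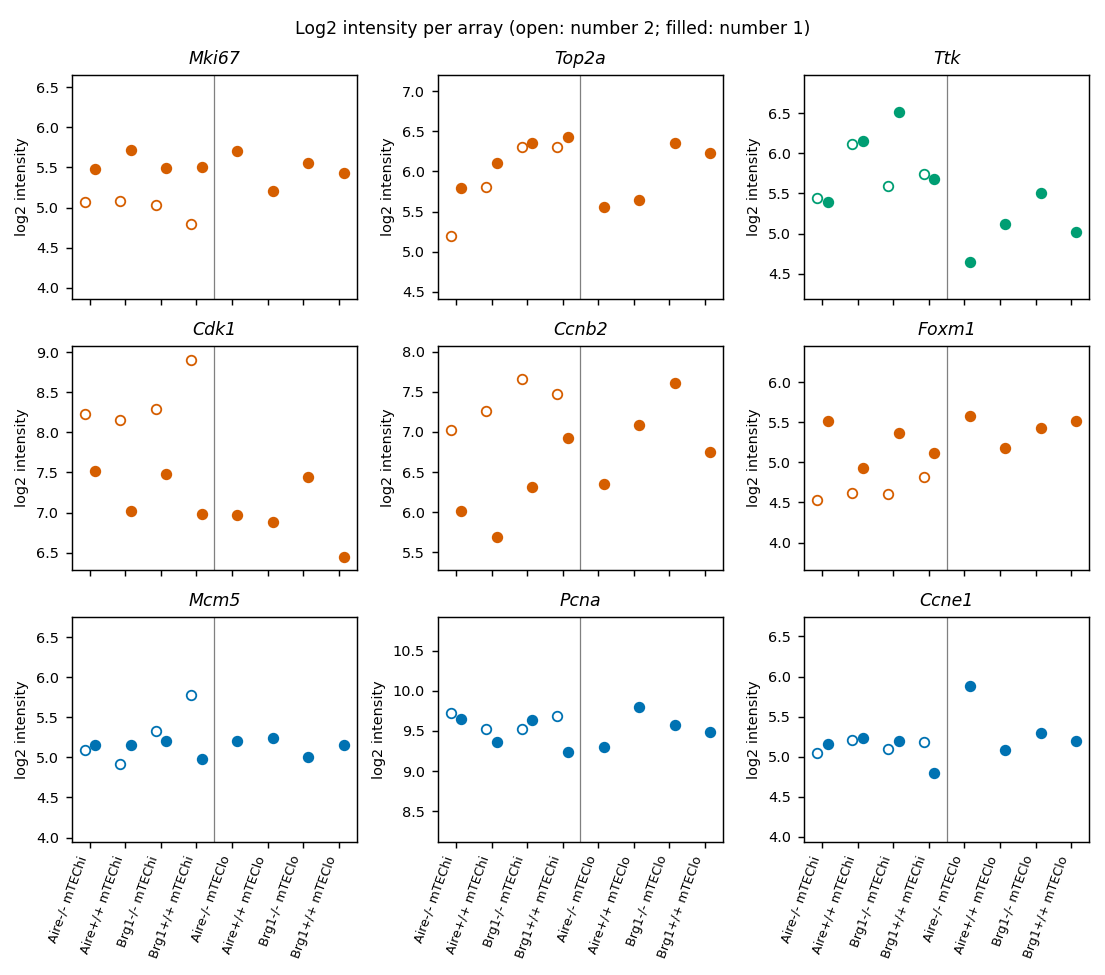
Log2 intensity (y axis, each panel spanning the same number of log2 units) of 9 cell cycle genes by genotype and cell type, with arrays numbered 2 as open and arrays numbered 1 as filled circles. Cdk1 and Ccnb2 lie higher and Mki67 and Foxm1 lower on the open circles, and Ttk lies lower in mTEClo, right of the line.

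Of the 117 other pathway genes, 1 passed between the cell types over all genotypes without the block, and 12 (10.3%) with it, 4 higher (3.42%) and 8 lower (6.84%), beside 12.5%, 6.72% and 5.75% of all genes. Without the block, 1 of 18 inhibitors passed, Btg2, an antiproliferative gene, which was lower in mTEChi (-0.93 ± 0.162, adjusted p = 0.0164), and 0 of 27 replication genes, 0 of 50 mitotic genes and 0 of 22 G1 genes did, while 25 of these 117 had an unadjusted p under 0.05. With the number as a block, Cdk4 was lower (-1.43 ± 0.166, adjusted p = 0.000988), as were Tfdp2, a partner of E2F factors (-1.12 ± 0.19, adjusted p = 0.00644), Btg2 (-0.86 ± 0.151, adjusted p = 0.00762), Ccnd1, cyclin D1 (-0.60 ± 0.151, adjusted p = 0.0372), and Cdkn1b (-0.63 ± 0.13, adjusted p = 0.0157). The mitotic phosphatase Cdc25c and the kinase subunit Cks2 were higher by 0.92 ± 0.2 and 0.72 ± 0.156 (adjusted p = 0.0202 and 0.0196). Among replication genes, Rfc3, a clamp loader subunit (-0.76 ± 0.138, adjusted p = 0.0087), and Dut, the dUTPase (-0.75 ± 0.158, adjusted p = 0.0175), were lower, and Gmnn, the licensing inhibitor geminin, was higher (0.66 ± 0.173, adjusted p = 0.0423). The other two were Tfdp1, an E2F partner, higher by 0.70 ± 0.191 (adjusted p = 0.0492), and Cenph, a kinetochore protein, which was lower (-0.72 ± 0.171, adjusted p = 0.0303). Thymocyte markers passed in 0 of 11 without the block and in 2 of 11 with it, Cd3g higher and Ptprc lower, and their part in these differences was not tested. Their summed intensity was 403.7 to 524.4 in mTEClo, below every mTEChi array. That of the B cell and myeloid markers was 525.2 to 629.7 in mTEClo, also below every mTEChi array. With the block, but not without it, Lyz2 and Ms4a1 were higher in mTEChi and Lum lower. Ccl25 was higher and Cxcl12 lower both without the block and with it.

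**Figure D4:**
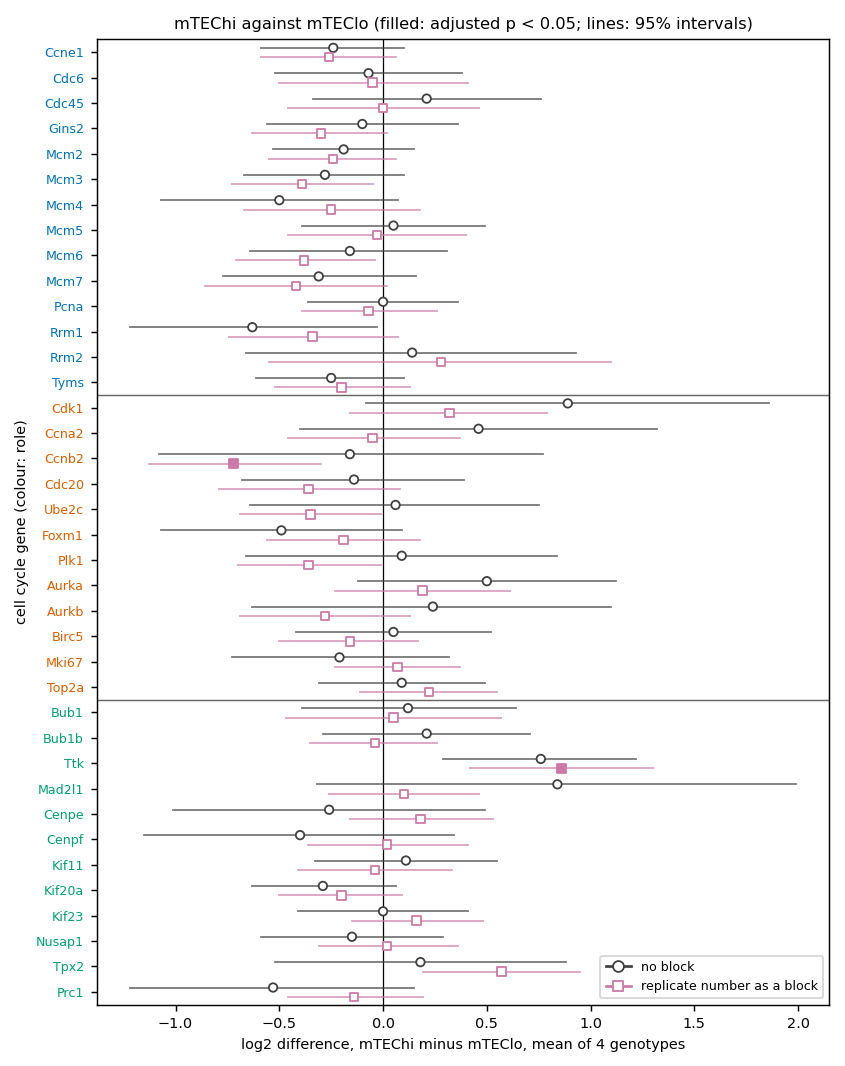
Log2 difference between mTEChi and mTEClo for 38 cell cycle genes over the 4 genotypes, without (grey circles) and with (pink squares) the replicate number as a block, with 95% intervals and symbols filled where the limma adjusted p is under 0.05. Only the squares of Ttk, at 0.86, and Ccnb2, at -0.72, are filled.

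No cell cycle gene passed for loss of Aire in mTEChi. Of 38, 0 passed, where 0.794% of all genes did (176 genes, limma), and 1 of 38 had an unadjusted p under 0.05. The median was -0.04, against 0.06 for all genes. With the number as a block 569 genes (2.57%) passed, and 0 of the 38, of which 3 had an unadjusted p under 0.05. The largest negative differences were those of Ccna2 and Ttk. Ccna2 had 5.29 and 4.17 in Aire-/- mTEChi, against 5.97 and 5.22 in Aire+/+ mTEChi, on arrays 2 and 1 (-0.86 ± 0.602, adjusted p = 1.0). Ttk had 5.44 and 5.40 in Aire-/- mTEChi, against 6.12 and 6.15 in Aire+/+ mTEChi, with both knockout arrays below both wild-type arrays (-0.72 ± 0.325, adjusted p = 1.0). Kif23, a motor of the central spindle, had 3.71 and 4.27 in Aire-/- mTEChi, against 4.60 and 4.76 in Aire+/+ mTEChi (-0.69 ± 0.287, adjusted p = 0.868), also without overlap, and its adjusted p was the smallest of the 38.

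On the positive side, Bub1b had 5.62 and 5.07 in Aire-/- mTEChi, against 5.12 and 4.77 in Aire+/+ mTEChi (0.40 ± 0.349, adjusted p = 1.0). Mcm4, a helicase subunit, had 4.80 and 5.77 in Aire-/- mTEChi, against 4.69 and 5.23 in Aire+/+ mTEChi (0.32 ± 0.395, adjusted p = 1.0), with groups that overlapped. Both Aire-/- arrays lay below both Aire+/+ arrays in 6 of 38 genes, Ccne1, Cdc20, Kif23, Top2a, Ttk and Tyms, against 11.6% of all genes, and above them in 2, Mcm2 and Pcna, against 15.9%. By role, 11 of the 14 replication genes were above 0, and 9 of 12 genes of mitotic entry and exit and 9 of 12 of the spindle were below 0. Their medians were 0.09, -0.103 and -0.088, against 0.06 for all genes, so that of replication lay near that of all genes. The share of all genes above or below 0 was not counted here. Of 117 other pathway genes measured, 0 passed (limma), and 1 had an unadjusted p under 0.05.

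For loss of Brg1 in mTEChi no cell cycle gene passed either. Of 38, 0 passed, and the share of all genes that passed was 0% (limma; 301 genes had an unadjusted p under 0.05, and 0 of the 38). The median was -0.03. With the number as a block, 0 genes passed again, and 2 of the 38 had an unadjusted p under 0.05. Mad2l1 had 7.47 and 5.61 in Brg1-/- mTEChi, against 8.02 and 6.88 in Brg1+/+ mTEChi, on arrays 2 and 1, the largest negative difference (-0.91 ± 0.809, adjusted p = 1.0). It was lower in Brg1-/- within each number, but the groups overlapped across numbers. Mcm4 had 4.63 and 5.25 in Brg1-/- mTEChi, against 5.46 and 5.35 in Brg1+/+ mTEChi (-0.46 ± 0.395, adjusted p = 1.0), and was the only gene with both knockout arrays below both wild-type arrays, against 9.62% of all genes.

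Cenpe had 5.83 and 6.92 in Brg1-/- mTEChi, against 5.21 and 6.32 in Brg1+/+ mTEChi, the largest positive difference (0.61 ± 0.524, adjusted p = 1.0), and was higher in Brg1-/- within each number. Rrm2, the small subunit of ribonucleotide reductase, had 7.09 and 6.89 in Brg1-/- mTEChi, against 5.55 and 7.44 in Brg1+/+ mTEChi (0.50 ± 0.556, adjusted p = 1.0), and here the 2 numbers disagreed in direction. Nusap1, a spindle protein, was the only gene with both knockout arrays above both wild-type arrays, against 9.77% of all genes. Among the 117 other pathway genes 0 passed (limma), and 3 had an unadjusted p under 0.05. The effects of the 2 losses did not differ past the threshold in any of the 38, where 0.135% of all genes passed (30 genes), and 0 of 38 had an unadjusted p under 0.05. The largest differences, Brg1 effect minus Aire effect, were those of Ttk (1.06 ± 0.459), Kif23 (0.76 ± 0.406), Mad2l1 (-0.83 ± 1.144) and Mcm4 (-0.79 ± 0.559), each with adjusted p = 1.0. The 95% interval for Ttk was -0.01 to 2.13 in this fit, without the block. With the number as a block, 205 of all genes were higher and 23 lower past the threshold (limma). Of the 38, 0 passed with the block, 3 had an unadjusted p under 0.05, and the smallest adjusted p was 0.399.

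In mTEClo each genotype had a single array, so the knockout differences have no replicate check and no test. On these single arrays, most cell cycle genes lay lower without Aire and higher without Brg1. For Aire, 28 of the 38 genes were lower in the knockout, against 44% of all genes, and 10 were higher, against 54.5%. The median difference was -0.14, against 0.04 for all genes, and 0 of 38 were at least 2-fold higher or lower, against 0.587% and 1.57% of all genes. Single pairs of Aire-/- and Aire+/+ mTEChi arrays gave medians of 0.05 on number 1, against 0.07 for all genes, and -0.16 on number 2, against 0.05. On each number the median of the 38 genes thus lay below that of all genes, though only slightly on number 1. The part of the genotype in these shifts was not tested. Ccnb2 had 6.35 in Aire-/- mTEClo, against 7.09 in Aire+/+ mTEClo (difference -0.74). Bub1 had 3.51 in Aire-/- mTEClo, against 4.24 in Aire+/+ mTEClo (-0.73). These were the largest negative differences, and Ccne1 and Mki67 had the largest positive ones. Ccne1 had 5.88 in Aire-/- mTEClo, against 5.08 in Aire+/+ mTEClo (0.80). Mki67 had 5.71 in Aire-/- mTEClo, against 5.21 in Aire+/+ mTEClo (0.50). The summed thymocyte markers were 403.7 in Aire-/- mTEClo, against 481.5 in Aire+/+ mTEClo. The sum of the fibroblast and endothelial markers was also lower in Aire-/- mTEClo, 408.6 against 423.7. Those of the B cell and myeloid markers (541.6 against 525.2) and of the cortical epithelial markers (408.8 against 371.4) were higher there. The part of these markers' cells was not tested.

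For Brg1, 31 of the 38 genes were higher in the knockout, against 47.7% of all genes, and 7 were lower, against 51%. The median difference was 0.27, against -0.01 for all genes. Single pairs of Brg1-/- and Brg1+/+ mTEChi arrays gave medians of 0.01 on number 1, against 0.02 for all genes, and -0.01 on number 2, against -0.02. Genes of mitotic entry and exit had a median of 0.61, with 11 of 12 above 0, those of the spindle 0.27, with 9 of 12, and those of replication 0.09, with 11 of 14. At least 2-fold higher were 2 of 38 genes, against 1.47% of all genes, and 0 were at least 2-fold lower, against 1.27%. Rrm2 had 7.85 in Brg1-/- mTEClo, against 6.24 in Brg1+/+ mTEClo (difference 1.61). In mTEChi, Rrm2 differed between arrays 2 and 1 by -1.89 in Brg1+/+ and by 0.20 in Brg1-/- cells. Birc5, survivin of the chromosomal passenger complex, had 5.22 in Brg1-/- mTEClo, against 3.64 in Brg1+/+ mTEClo (1.58). Birc5 differed between mTEChi arrays 2 and 1 by 0.20 and 0.48 in these genotypes, and is dim, with a mean of 4.28 over the 12 arrays (percentile 17.5 among all genes). The next largest differences were those of Cdk1, Ccna2 and Cdc20, all genes of mitotic entry and exit. Cdk1 had 7.44 in Brg1-/- mTEClo, against 6.45 in Brg1+/+ mTEClo (0.99). Ccna2 had 5.31 in Brg1-/- mTEClo, against 4.36 in Brg1+/+ mTEClo (0.95). Cdc20, the activator of the anaphase-promoting complex, had 7.34 in Brg1-/- mTEClo, against 6.41 in Brg1+/+ mTEClo (0.93). Prc1 and Mcm2 had the largest negative differences. Prc1 had 5.86 in Brg1-/- mTEClo, against 6.26 in Brg1+/+ mTEClo (-0.40). Mcm2 had 5.80 in Brg1-/- mTEClo, against 6.02 in Brg1+/+ mTEClo (-0.22). In mTEChi of the same line the 12 genes of mitotic entry and exit had a median Brg1 difference of -0.10, with 4 above 0. The share of all genes above 0 was not counted there, and whether the cell types differ in this was not tested. The summed thymocyte markers were 524.4 in Brg1-/- mTEClo, against 431.2 in Brg1+/+ mTEClo. The sums of the B cell and myeloid markers were 629.7 in Brg1-/- mTEClo, against 559.5 in Brg1+/+ mTEClo, and those of the fibroblast, endothelial and cortical epithelial markers were higher in Brg1-/- too. The part of these markers' cells in the difference was not tested.

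**Figure D5:**
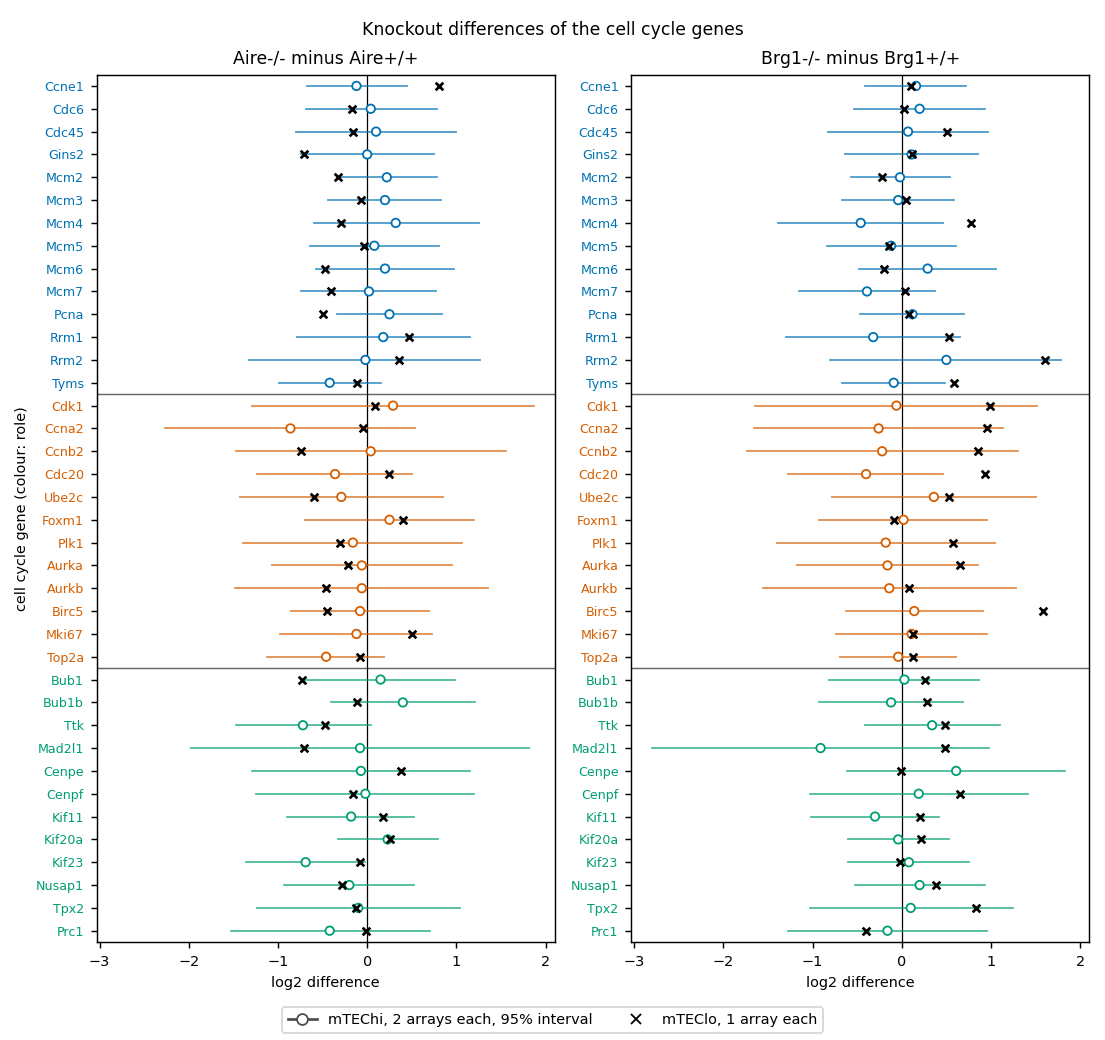
Log2 difference between knockout and wild type for 38 cell cycle genes in the Aire line (left) and the Brg1 line (right), in mTEChi as circles with 95% intervals (2 arrays each, no circle past the threshold) and in mTEClo as crosses (1 array each, no test). In the Brg1 line most crosses of the genes of mitotic entry and exit (orange) lie right of 0, with Rrm2 at 1.61 and Birc5 at 1.58.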

How the data were processed

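Per the labels' protocols, sorted mTECs were lysed in Trizol LS, and the RNA was purified on columns, biotin-labelled and hybridised to Affymetrix arrays. The deposited values are 1 intensity per probe set and array on a linear scale, and Transcriptome Analysis Console, Affymetrix Expression Console and RMA are named without versions, per the submitters' processing notes. The sources used here do not say if the 12 arrays were normalized as 1 set. The log2 of each deposited intensity was used, without pseudocount. Of 33732 probe sets, 23491 had 1 gene symbol in the platform annotation, 1811 several and 8430 none.

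limma 3.58.1 under R 4.3.3 (lmFit, eBayes) fitted 1 model of 8 group means over 12 arrays, with 4 residual degrees of freedom, two-sided, Benjamini-Hochberg over 22154 genes, threshold 0.05, SE as moderated by limma, and the lone mTEClo arrays assumed to vary like the mTEChi groups. The number of arrays limits the precision. Arrays with the same number deviated together from their group means (r = 0.552 to 0.657 across genes, in the 6 pairs of mTEChi groups), so fits with the number as a block stand beside results they change. The steps were tested on simulated data. Summaries used Python 3.11.15 and pandas 2.3.3. The cell cycle genes, the other lists and the tests were chosen with earlier results of these data known. Named were all listed genes, and up to 6 genes of another list with the smallest p in a comparison. Alternatives were the block, scaling, a pseudocount of 16, probe set choice, a filter on dim genes, the variance prior and leaving out arrays.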

Additional observations from a re-analysis of the deposited data

How the results depend on the processing

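Under every alternative run, 0 of 38 cell cycle genes passed in the wild-type comparison of mTEChi and mTEClo, in either knockout comparison in mTEChi and in the difference between the knockout effects. Over all genotypes, mTEChi against mTEClo gave 2 genes with the number as a block common to all groups, and 1 (Ttk) with the block within each line, with arrays centred, with quantile normalization and with arrays numbered 1 alone; leaving out 1 array gave 0 to 1. The replicate block changed no other call among the cell cycle genes. Ccnb2 in that comparison was -0.16, 0.04 without Aire+/+ array 1 and 0.01 without Brg1-/- array 1, and -0.35 to 0.04 with any 1 array left out. The median difference of Brg1 effect minus Aire effect was 0.152 over genes above the median level and -0.172 to 0.155 with 1 array left out. For number 2 over number 1, the count fell to 9 over genes above the median level, where 18 of the 38 remain, and the median was 0.311 with arrays centred. In mTEClo, the Aire median was -0.295 over genes above the median level; for Brg1, 1 gene reached 2-fold and the median was 0.171 with a pseudocount of 16, and 1 gene and 0.485 over genes above the median level. The cause of these changes was not tested beyond the construction of each alternative. Over all genes, the number that passed ranged from 248 to 1757 for the wild types, 919 to 2763 over all genotypes, 53 to 569 for Aire, 0 to 1 for Brg1, 4 to 228 for their difference and, by number, 3943 to 7279 beside the 7327 reported above. Signal over background is not known here, and 28 of the 38 mean log2 intensities are under 6.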

Other observations

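Some of the cell cycle genes also lie on probe sets shared with another gene, which cannot be assigned to either. The probe sets of Top2a and Taf1d had log2 intensities of 6.61 to 9.65 and 7.01 to 10.09, and that of Oip5 and Nusap1 3.17 to 5.14. The probe set of Ccne2 and Ints8 had 4.40 to 5.37. Mcm7 shares probe sets with Mir25 (5.01 to 6.83) and Mir93 (3.21 to 4.23), microRNAs of its intron.

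Among the 12 genes that passed by number and have a promoter window, the CHR stood in 3 of 7 that were higher on number 2 and in 3 of 5 that were lower, and the CCAAT box in 6 of 7 and 5 of 5.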
